A study of Arabidopsis thaliana with 6 samples.

Results

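Class III peroxidases were followed in the roots and the rosette leaves of thale cress (Arabidopsis thaliana) grown without added lead or with lead in the nutrient solution. A list of 60 class III peroxidase loci was matched by locus to the probe sets of the array that name 1 gene. Of these, 41 loci were measured, by 46 of the 3794 probe sets that name 1 gene on an array with 8247 probe sets besides its controls. The rule for membership is the gene family and uses no measured value, although the family was picked for description with earlier results of these data known. The other 19 loci had no probe set naming them alone here, among them RCI3, PER4, PRXCA, PRXCB, PA2, PRX52, PER64 and RHS19. Probe sets that name several genes were searched by locus identifier only, and no member was found. Members listed there under a gene name would have been missed, so their presence on such sets was not settled. Of the 46 member probe sets, 15 carry the suffix that marks probes able to match more than 1 transcript, so part of their signal may come from related peroxidases. Among them are the sets of AT3G32980, AT5G17820, AT3G01190, AT2G37130, AT4G21960 and AT1G71695.

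The series holds 6 arrays in 6 groups, with 1 array per group. All plants were of accession Col-4, were grown hydroponically and were harvested at growth stage 6. Control plants received nutrient solution without lead. The other plants received 25 ppm or 50 ppm lead as lead nitrate, added repeatedly with the nutrients, and roots and rosette leaves of each dose were measured separately. The number of plants behind each RNA sample is not stated in the labels. Since no group had a replicate array, no value below has a replicate error of its own.

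Class III peroxidases are haem enzymes that plants secrete to the cell wall or the vacuole. They use hydrogen peroxide to oxidise phenolic compounds, which couples monolignols into lignin, joins phenolics in suberin and cross-links wall proteins, and they can also form reactive oxygen species. The family is large in land plants, and many members are known for expression in roots, where they act in wall stiffening, root hair growth and the lignified barriers around the vascular tissue. Among the measured members, PRX72 (AT5G66390), PRX71 (AT5G64120) and PRX25 (AT2G41480) are known from mutants with altered lignin. The other members are given by locus, since no further name for them was used here, except PRXR1 (AT4G21960).

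Values are linear signals per probe set in arbitrary units, scaled to a common trimmed mean. A floor of 8, at the 30th percentile of the data, replaced lower signals before log2 was taken, so a fold measured from a value under 8 is a lower bound and is written as at least. A probe set was tested when 1 or more of its signals reached 25.3, the overall median. Median signals of the arrays ran from 22.3 to 29.3, and the average background in the array records was 192.65 for roots at 50 ppm and ran from 69.03 to 97.80 elsewhere. Of 12 leaf marker genes 4 were measured, on 8 probe sets whose summed signal was 119.6 to 172.2 on the root arrays and 22630 to 31330 on the leaf arrays. PSBW, a photosystem subunit, never rose above the floor in roots. The other measured markers did, with highest root signals of 87.7 for LHB1B2, 55.8 for PSAE1 and 27.6 for RCA. None of 13 root marker genes had a named probe set, so the root label was checked by the low leaf markers alone.

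Of the 46 member probe sets, 38 were tested, representing 34 loci. The 8 that were not tested were those of AT2G18140, AT2G24800, AT4G16270, AT4G17690, AT4G25980, AT4G31760 and AT4G33870 and a further set of AT2G22420. AT2G24800, AT4G17690 and AT4G25980 lay under the floor on all 6 arrays. AT4G16270 measured 19.1, 20.6 and 23.6 in roots at 0, 25 and 50 ppm and stayed below the floor in leaves. The highest signal of AT4G31760 and AT4G33870 on any array was 19.2. On the leaf arrays 18 of the 46 member sets (39.1%) lay under the floor throughout, and 15 of the 46 (32.6%) did so while above it on every root array, as did 5.29% of all 8247 probe sets. Among all 8247 probe sets, 25.5% were below it throughout the leaf arrays and 22.3% throughout the root arrays.

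The first comparison set roots against leaves at matched doses, which asks where in the plant these peroxidase transcripts lie. Peroxidase signals were far higher in roots for most members. With dose also in the limma model, 33 of the 38 tested member probe sets (29 loci) were higher in roots, where 31% of all tested probe sets were called in that direction. The doses were the only replication of organ in this test. Its error is how far the organ difference varied between doses, on 2 residual degrees of freedom, moderated across probe sets. One member, AT1G71695, was called higher in leaves, where the share over all tested probe sets was 21.6%. The median root minus leaf difference was 4.57 on the log2 scale over the tested member probe sets and 0.30 over all tested ones. Of the 38, 27 reached the signal for testing on root arrays only and could be tested only because they were high there, so the count of 33 and the median of 4.57 describe the members and do not support a preference for roots. The other 11 reached it in both organs; limma called 7 of these up in roots and 1 up in leaves, where the shares of the 3705 probe sets that did so were 26% and 16.7%.

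AT3G32980 measured 2613, 2977 and 2144 in roots at 0, 25 and 50 ppm and stayed under the floor in leaves. It was at least 319-fold higher in roots (log2 difference 8.32, standard error 0.22). AT5G64100 measured 3039, 2662 and 2022 in roots, while its leaf signals were under the floor at 0 and 50 ppm and 8.43 at 25 ppm. It was at least 312-fold higher in roots. AT4G30170 measured 1498, 1438 and 1477 in roots and was under the floor in leaves. Their lowest root signal was 268-fold, 240-fold and 180-fold above the highest leaf value, in that order, with leaf values taken no lower than the floor. Where a member stayed under the floor in leaves, the leaf arrays added no spread to the standard error. These loci could be tested only because they were high in roots. Their limma calls thus describe them and do not support a preference for roots.

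The next 4 probe sets in order were at least 142-fold to at least 151-fold higher in roots. The order depends on the floor: with it at the 10th percentile AT5G17820 passed AT3G32980, at a log2 difference of 9.63 beside 9.55. AT5G17820 measured 1669, 1004 and 1035 in roots and lay under the floor in leaves (at least 150.1-fold). AT2G38390 measured 870.1, 952 and 2067 in roots and lay under the floor in leaves (at least 149-fold). AT2G38380, the direct neighbour of AT2G38390 by the gene order of the RefSeq table, was measured by a pair of probe sets. One gave 1233, 2226 and 1789 in roots and 7.39, 22.1 and 0.598 in leaves. The other gave 763, 1922 and 1249.7 in roots and 8.39, 9.53 and 2.99 in leaves. Both neighbours were thus high in roots and near the floor in leaves, but their highest root signal fell on different arrays, at 25 ppm for AT2G38380 and at 50 ppm for AT2G38390.

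AT3G01190 measured 1057, 481 and 435 in roots and was under the floor in leaves (at least 75.6-fold). AT5G19890 measured 977, 382 and 511 in roots and 4.70, 8.83 and 0.997 in leaves (at least 69.6-fold). AT2G37130 measured 2358, 2042 and 1818 in roots and 17.6, 33.8 and 44.9 in leaves, a 69.0-fold difference with all 6 signals above the floor. AT4G26010 measured 562, 928 and 276 in roots and was under the floor in leaves (at least 65.5-fold).

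The largest differences also included the brighter probe set of AT3G21770, which measured 1099, 342 and 1339 in roots and 16.0, 10.3 and 32.8 in leaves (45.3-fold). The remaining members called in roots ran from at least 2.12-fold for AT2G43480, whose limma call was close to the threshold, to at least 42.3-fold for AT2G18980. Both could be tested only through their root arrays. PRX72 was at least 33.8-fold higher in roots, PRX25 at least 22.3-fold and PRX71 at least 3.63-fold.

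**Figure D1:**
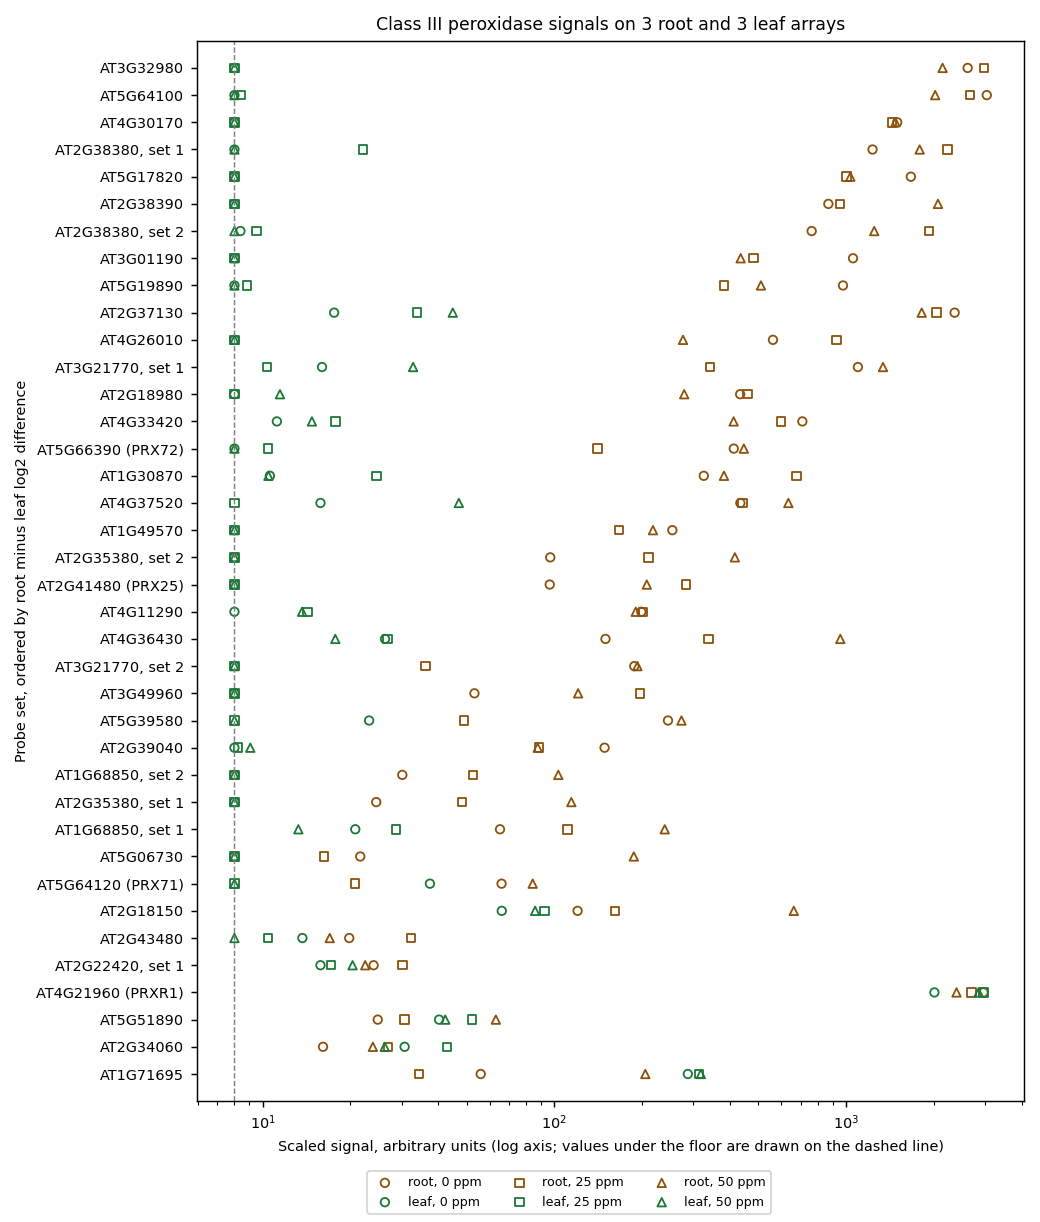
Scaled signal (log axis) of the 38 tested peroxidase probe sets, 1 per line, on the 3 root arrays (brown) and 3 leaf arrays (green), with circles for 0, squares for 25 and triangles for 50 ppm lead. The dashed line is the floor of 8, on which lower signals are drawn; most lines show brown symbols far to the right of green ones, and AT1G71695 at the bottom shows the opposite order.

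A few peroxidases did not follow this order. AT1G71695 measured 55.9, 34.4 and 205 in roots and 287, 313 and 318 in leaves. Every leaf signal lay above every root signal, and the 50 ppm root signal came closest. Leaves were 4.17-fold higher (log2 root minus leaf -2.06, standard error 0.49, adjusted p = 0.0165 in limma). Without the filter on low signals the adjusted p was 0.132, and it was 0.0800 without the control root array, 0.0547 without the 25 ppm root array, 0.0819 without the control leaf array and 0.0600 without the 25 ppm leaf array. It passed without the 50 ppm root array (0.00219) or the 50 ppm leaf array (0.00250). Since dose is in the model, leaving out an array also takes the other array of its dose out of the comparison. The log2 difference was thus the same whichever organ's array was left out: -1.91 for the control, -1.50 for 25 ppm and -2.77 for 50 ppm. These fits leave out a dose rather than a single array.

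PRXR1 had high signals in both organs, with 2961, 2693 and 2393 in roots and 2010, 2957 and 2849 in leaves. The ranges overlapped, and the difference of 0.06 on the log2 scale had a standard error of 0.21 (adjusted p = 0.834 in limma). AT5G51890 measured 24.8, 30.6 and 63.0 in roots and 40.3, 52.2 and 42.3 in leaves, AT2G34060 measured 16.1, 26.9 and 23.9 against 30.7, 42.9 and 26.2, and AT2G22420 measured 24.0, 30.1 and 22.5 against 15.8, 17.2 and 20.3 on its tested probe set. None of these 3 passed the test between organs. AT2G18150 measured 120.2, 161 and 662 in roots and 66.0, 92.7 and 85.9 in leaves and was called higher in roots by 2.90-fold. Its direct neighbour AT2G18140 was close to or under the floor on all 6 arrays, with a highest signal of 10.7, and was not tested.

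Other enzymes that make or use hydrogen peroxide were covered thinly. Of 10 NADPH oxidase genes, which supply superoxide outside the cell, 3 were measured and all were called higher in roots: RBOHG at 73.6, 77.8 and 79.2 in roots against a highest leaf signal of 13.8, RBOHI at 35.7, 14.9 and 27.7 and RBOHE at 11.6, 28.6 and 34.5, both under the floor in leaves. All 3 reached the signal for testing on root arrays only, so this count, beside 31% of all tested probe sets, is a description. Of 11 class I peroxidase and catalase genes, 2 were measured. TAPX, the thylakoid ascorbate peroxidase, was higher in leaves by at least 34.0-fold and 35.2-fold on its probe sets and under the floor in roots. SAPX, a stromal ascorbate peroxidase, measured 49.9, 86.4 and 103.5 in roots and 58.6, 42.9 and 64.1 in leaves and did not pass. None of the 17 monolignol synthesis genes, 17 laccases, 7 superoxide dismutases or 9 genes of the Casparian strip and suberin had a named probe set here.

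The second comparison set lead-treated roots against control roots. It asks which peroxidases take part in the root's response to lead. With both doses pooled as lead, 0 of the 38 member probe sets and 0% of all tested probe sets passed in limma; 8 of the 38 members and 332 of all 5395 had an unadjusted p under 0.05. The lowest adjusted p of a member was 0.65, for AT3G01190. The error in this test is how far the arrays of both doses lie apart, pooled over roots and leaves and moderated across probe sets. Sets under the floor on every leaf array add no spread from leaves, which lowers their error. Among the 8 members this held for PRX25, AT3G01190, AT3G49960 and both sets of AT2G35380, so the count of 8 is favoured by the floor. A response at 1 dose alone adds to the error. Changes were therefore described by size, by asking for 2-fold or more, one way, between the control and each dose, without a test. Both changes share the control array.

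By this rule 4 of the 38 member probe sets, each of a different locus, were higher in roots with lead, against 2.89% of all tested probe sets. No member set reached the signal for testing on leaf arrays only, while 693 of all 5395 tested sets did. The shares over all tested sets, here and in the root rules below, thus include sets that were weak in roots. Over both doses the members' log2 change had a median of 0.05 and a mean of 0.23, beside 0 and 0.04 for all tested probe sets, with 19 member sets above 0 and 19 below. At 50 ppm alone the median was 0.19 and the mean 0.48, beside 0 and 0.10. AT4G36430 measured 149.8, 338 and 956 in roots at 0, 25 and 50 ppm, which was 2.26-fold and 6.38-fold higher. AT2G35380 measured 96.9, 210.1 and 416 on its brighter set (2.17-fold and 4.29-fold). Its other probe set measured 24.5, 48.2 and 114, with 1.97-fold at 25 ppm just short of the rule. Signals of both loci followed the order of the doses. AT3G49960 measured 53.2, 197 and 121, and PRX25 measured 96.5, 282 and 207.5 (2.93-fold and 2.15-fold). For these the 25 ppm array was highest. In leaves, AT2G35380, AT3G49960 and PRX25 never exceeded the floor, so no leaf response to lead could be measured. Without the 25 ppm root array, where the rule asks for the 50 ppm change alone, 12 member sets and 591 of all 5395 tested sets were higher.

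Lower at both doses was 1 member set, against 1.82% of all tested probe sets. This was AT3G01190, whose root signals given above were 2.20-fold and 2.43-fold under the control. AT5G19890 was under its control by 2.55-fold and 1.91-fold, and AT2G39040, at 149, 88.8 and 87.7, and AT5G17820 were 1.61-fold to 1.70-fold lower at both. AT3G01190 and AT5G17820 lay under the floor on every leaf array. Without the 50 ppm root array 7 member sets and 296 of all tested sets were lower at the remaining dose, and without the 25 ppm root array 2 and 287 were.

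Roots at 25 ppm stood apart for a group of 4 peroxidase loci, a pattern counted after the values were seen. In 5 member probe sets (13.2%) the 25 ppm signal was at least 2-fold below both other root arrays, against 2.24% of all tested probe sets. Where the mean signal was 100 or more, the shares were 2 of 24 members and 2.17% of all. AT5G39580 measured 245, 48.9 and 273 in the order of the doses. PRX71 measured 65.9, 20.7 and 84.3. PRX72 measured 412, 140.5 and 446. The weaker set of AT3G21770 measured 188, 36.1 and 193, beside the brighter set described above. In each case the control and 50 ppm signals lay within 1.28-fold of each other and the 25 ppm signal was 2.93-fold to 5.20-fold under the control. The sets of PRX71 and PRX72 and the weaker set of AT3G21770 carry the suffix for probes able to match several transcripts. Part of their signal may therefore come from related peroxidases. In the opposite direction, 0 member sets were at least 2-fold above both other arrays at 25 ppm, where 0.89% of all tested sets were.

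The 50 ppm root array was at least 2-fold above both other root arrays in 8 of 38 member sets (21.1%, 8 loci), against 6.32% of all tested probe sets. Restricted to mean signals from 100 upward, this held for 4 of 24 members and 5.02% of all. AT5G06730 measured 21.6, 16.2 and 187 in the same order. AT2G18150 measured 662 at 50 ppm, 5.51-fold over control. AT1G71695, the member with higher leaf signals, measured 205 at 50 ppm, 5.96-fold over the 25 ppm array. The others were AT4G36430, AT2G38390, AT5G51890 and 1 probe set each of AT1G68850 and AT2G35380. This array also had the highest scanner background, and the part of that background in the result was not tested. At 50 ppm 1 member set, that of AT4G26010, was at least 2-fold below both other root arrays, at 276 against 562 and 928, where 1.78% of all tested sets were.

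Set directly against 25 ppm, 13 member sets (34.2%) were at least 2-fold higher at 50 ppm in roots, against 10.4% of all tested probe sets, and 1 (2.63%) was lower, against 3.73%. Of these 13, 5 were the sets that were low at 25 ppm and 8 were those that were high at 50 ppm. Member signals in roots were thus less even across the arrays than those of the array as a whole: 16 of 38 member sets (42.1%) had all 3 root arrays within 2-fold of each other, against 75.3% of all tested probe sets. Weak signals held at the floor count as even, so the shares were also taken over probe sets that reached 100 on a root array, where they were 39.4% of 33 member sets and 73.1% of all. Even members included AT4G30170, whose root signals spanned 1.04-fold, AT4G11290, at 199, 201 and 190, and AT3G32980, at 1.39-fold.

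**Figure D2:**
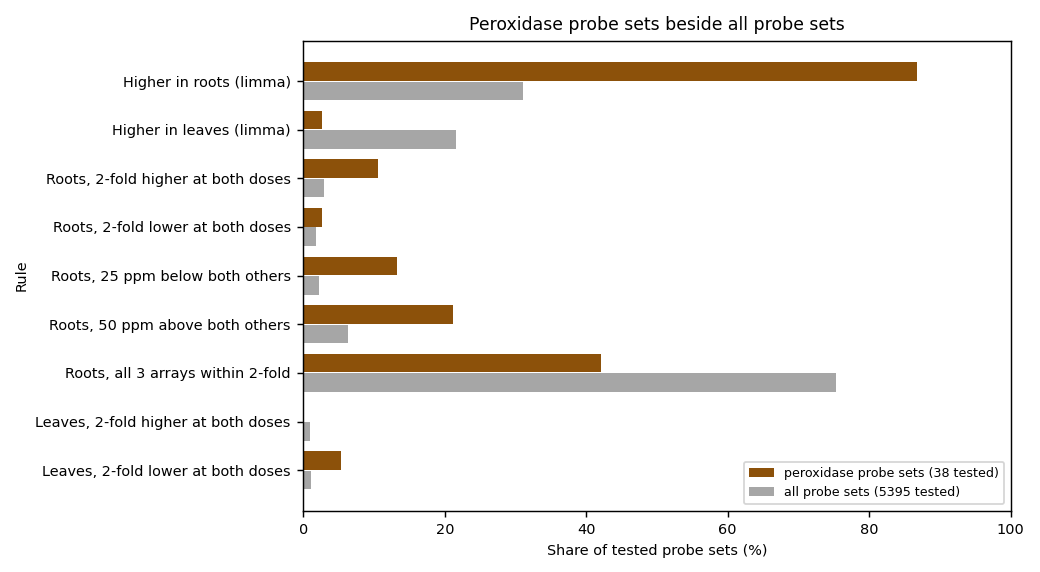
Share of tested probe sets (%) that met each rule, for the 38 peroxidase probe sets (brown bars) and all 5395 tested probe sets (grey bars). The bars for higher signals in roots stand at 86.8% against 31%, but 27 of the 38 members could be tested only through root arrays; for root arrays within 2-fold of each other they stand at 42.1% against 75.3%, and for 2-fold lower signals in roots at both doses, 2.63% against 1.82%, the bar of the members is 1 probe set.

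**Figure D3:**
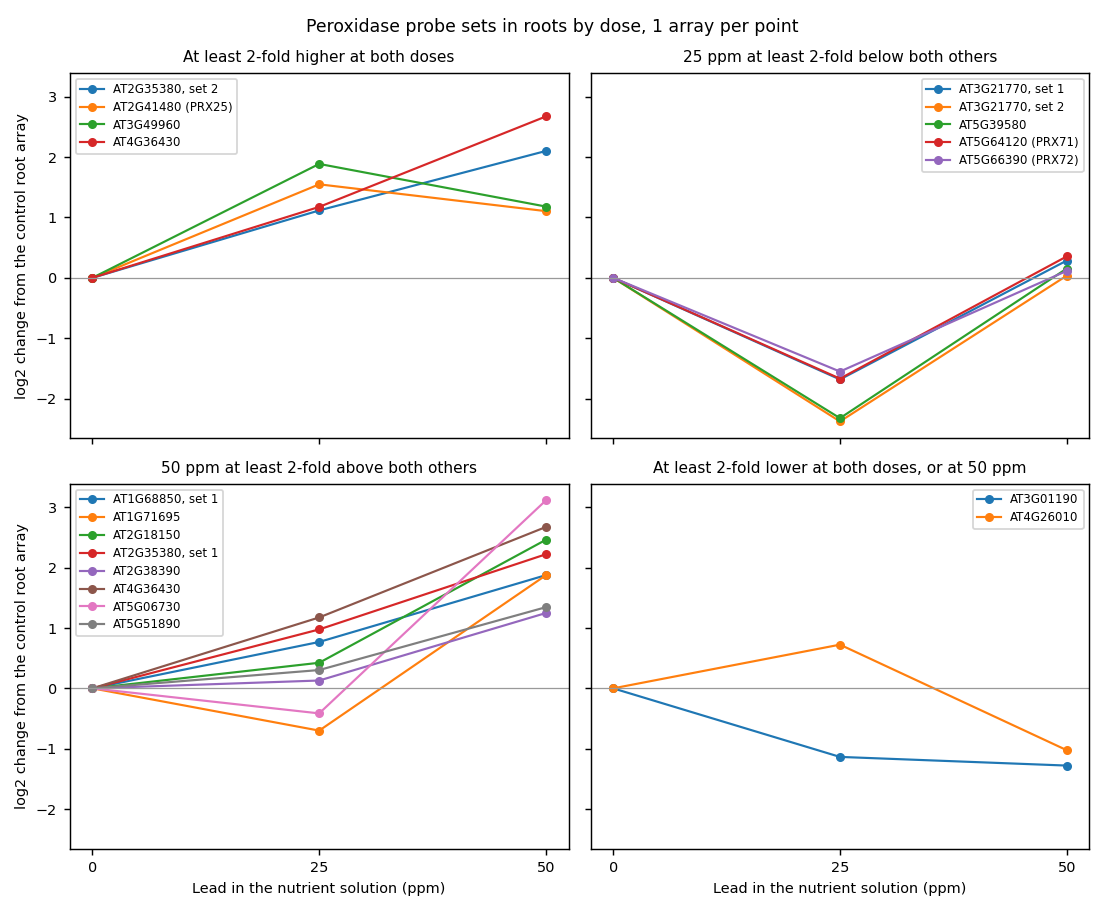
log2 change from the control root array at 25 and 50 ppm lead for the peroxidase probe sets that met a rule in roots, 1 array per point and 1 line per probe set. Upper left, sets at least 2-fold higher at both doses; upper right, sets lowest at 25 ppm; lower left, sets highest at 50 ppm; lower right, AT3G01190, lower at both doses, and AT4G26010, lower at 50 ppm.

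For 5 loci a pair of probe sets was named, so each profile can be read on both sets. Whether the sets of a pair use separate probes, or match related transcripts, was not checked, so they are not known to be independent readings. AT1G68850 measured 65.1, 111 and 239 in roots on its brighter set, while its weaker set gave 30.1, 52.6 and 103.2, with 50 ppm over control at 3.67-fold and 3.43-fold. AT2G35380 gave 4.67-fold and 4.29-fold for the same comparison. For AT3G21770 the 25 ppm array was 3.21-fold and 5.20-fold under the control. AT2G38380 was 1.80-fold and 2.52-fold over the control at 25 ppm. In these 4 loci both probe sets gave the same order of the 3 root arrays, although the control and 50 ppm signals of AT3G21770 were close together. The second set of AT2G22420 stayed under the signal needed for testing, at 20.3, 20.7 and 23.4 in roots and 8.29, 16.3 and 9.57 in leaves. Of neighbouring loci measured together, AT5G64100 and PRX71 differed in roots, with AT5G64100 highest in the control and PRX71 lowest at 25 ppm, and AT4G25980 lay under the floor throughout while AT4G26010 was high in roots.

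**Figure D4:**
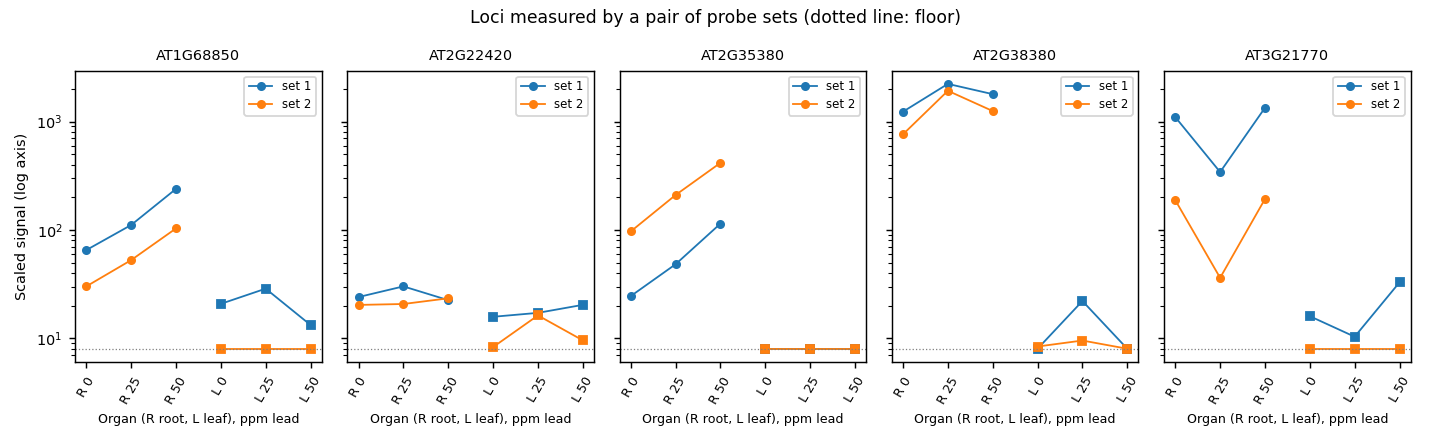
Scaled signals (log axis) on the 3 root arrays (circles) and the 3 leaf arrays (squares) for the 5 loci measured by a pair of probe sets, 1 colour per set; the dotted line is the floor. The lines of a locus run in parallel in roots for AT1G68850, AT2G35380, AT2G38380 and AT3G21770, and their leaf signals are lower on every array.

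The third comparison set leaves with lead against control leaves. Few peroxidases had leaf signals high enough to follow. In limma 0 of 38 member sets and 0% of all tested sets passed for lead in leaves; 2 members and 134 of all had an unadjusted p under 0.05. By size, 2 member sets were at least 2-fold lower at both doses, against 1.04% of all tested probe sets, and 0 were higher, against 0.982%. PRX71 measured 37.5 in control leaves and lay under the floor at 25 and 50 ppm, at least 4.68-fold lower. AT5G39580 measured 23.2 in control leaves and lay under the floor at both doses, at least 2.90-fold lower. Both genes drop out when a mean signal of 100 or more is required. In roots the same genes were low at 25 ppm and back near the control at 50 ppm.

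Between the doses in leaves, 2 member sets were at least 2-fold higher at 50 than at 25 ppm, against 4% of all tested probe sets, and 3 were lower, against 3.91%. AT4G37520 measured 15.8 in control leaves, under 8 at 25 ppm and 47.1 at 50 ppm, and the brighter set of AT3G21770 measured 16.0, 10.3 and 32.8. AT1G30870 measured 10.6, 24.6 and 10.5, and AT1G68850 measured 20.8, 28.7 and 13.3 on its brighter set. AT2G38380 measured 7.39, 22.1 and 0.598 on the set that met the rule, and its other set was also highest at 25 ppm. The highest of these leaf signals was 47.1. Better measured members moved less: AT1G71695 spanned 1.11-fold over the 3 leaf arrays and PRXR1 1.47-fold, with PRXR1 lowest in control leaves. AT2G37130, at 17.6, 33.8 and 44.9, had the lowest unadjusted p of the members for lead in leaves (0.0195), with an adjusted p of 1 in limma.

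**Figure D5:**
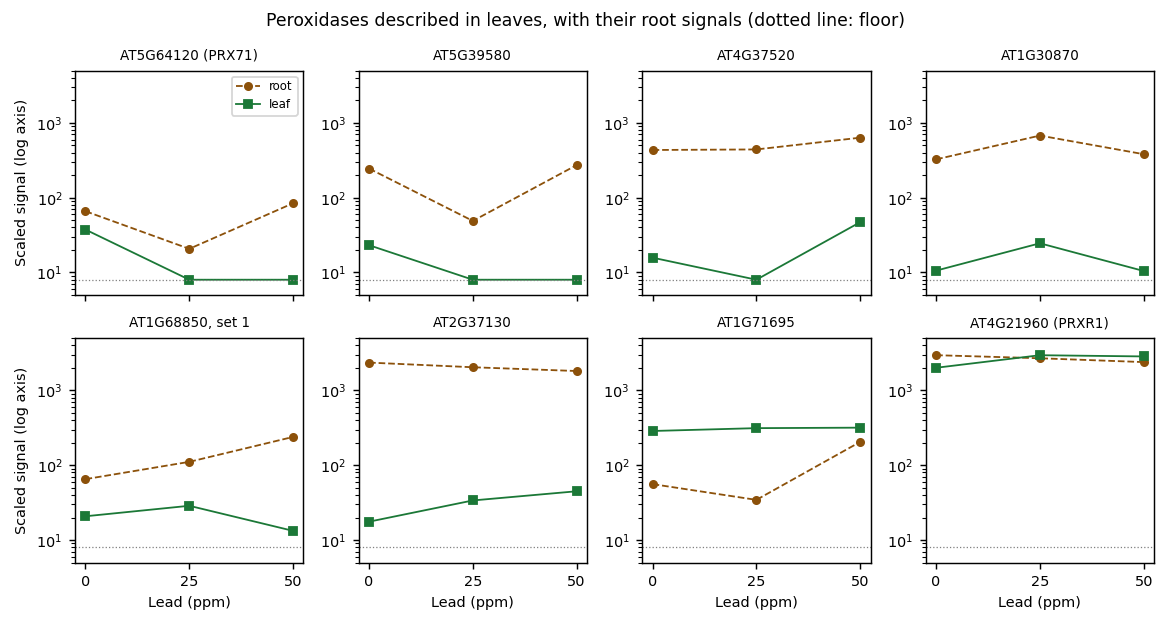
Scaled signals (log axis) of 8 peroxidase probe sets by lead dose in leaves (green squares, solid lines) and roots (brown circles, dashed lines), 1 array per point, with the floor as a dotted line. PRX71 and AT5G39580 drop to the floor in leaves at both doses, AT1G71695 lies higher in leaves at every dose, and the lines of PRXR1 cross.

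Whether a member's lead change differed between roots and leaves was tested as an interaction in limma. For members under the floor on every leaf array no leaf change could be measured, so the tested difference is their root change alone. Among the 4 members counted next, this held for PRX25, AT3G01190 and AT3G49960. None of the 38 member sets and 0% of all tested sets passed, with 4 members and 202 of all at an unadjusted p under 0.05. The lowest adjusted p of a member was 0.998. AT2G37130 had the lowest unadjusted p (0.0297), with a log2 change of -0.29 in roots and 1.15 in leaves. For AT4G36430 the lead change was 1.92 in roots and -0.27 in leaves, a difference of 2.19 that did not pass. Without the 25 ppm root array 3 member sets and 171 of all tested sets passed for lead in roots, the members being one set each of AT2G35380, AT5G06730 and AT1G68850. For the difference between organs 2 member sets, those of AT2G35380 and AT5G06730, and 121 of all passed. This fit takes the spread of the single remaining lead root array from the leaf arrays, where these 3 sets lay under the floor.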

How the data were processed

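The values used are the authors' deposited signal per probe set and array on a linear scale, never below 0; from the values, each array's trimmed mean lay near 100. Software and scaling method are not given in the sources used here. After 50 control probe sets were set aside, the 6 columns were brought to one trimmed mean (2% from each end), raised to a floor at the 30th percentile and log2-transformed; the 5395 probe sets reaching the median on at least 1 array were tested. Probe sets were matched to loci through the platform's gene identifiers or symbols and a RefSeq table of assembly TAIR10.1; 70 probe sets name several genes and 4383 have no gene there.

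Roots and leaves were compared with limma 3.58.1 in R 4.3.3 (two-sided, trended eBayes, p adjusted by Benjamini-Hochberg over all tested probe sets, threshold 0.05) with dose as a factor; lead was tested on 4 combinations of organ and lead, with 2 residual degrees of freedom. With no replicate arrays, the p-values reflect only how these 6 arrays vary. Fitted code was tested on simulated data. Every measured member could be named; signals, or their lying under the floor, are given for the 12 largest organ differences, the 2-fold rules, the largest dose differences in each organ, members called in leaves, repeated probe sets and neighbouring loci. Alternatives changed scaling, floor, filter, fits, folds and arrays. The members and gene lists were chosen with earlier results of these data known. Protein and promoter sequences were not used here.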

Additional observations from a re-analysis of the deposited data

How the results depend on the processing

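The count of members higher in roots stayed between 26 and 33 under every alternative planned, beside 1111 to 1806 of all probe sets. The 26 came without the filter, over 46 member sets, beside 1126 of all 8247 probe sets. At a mean signal of at least 100, a filter added after the data were seen, the count was 22 of 24. There 773 of 2209 probe sets were called in all. The member higher in leaves was lost (0) without the filter and ranged from 0 to 1 without single arrays. For the 13 probe sets (12 loci) followed singly between organs, 190 of 195 alternative values kept direction and call, and the 5 others were those of AT1G71695. All but that of AT1G71695 were picked for the largest organ differences in these data, so their calls had little room to change. Members called near the threshold were not followed singly. The median root minus leaf difference was 5.13 and 3.03 for floors at the 10th and 50th percentile, 3.45 with an offset, 3.76 without the filter, 5.45 at a mean signal of at least 100, 4.15 as a mean, and 4.30 to 4.74 without single arrays. The median lead change in roots was 0.12 without the filter, -0.10 at a mean signal of at least 100, 0.23 as a mean, and from 0.047 to 0.191 without single arrays; in leaves it was 0.13 under the lower floor and 0.10 at a mean signal of at least 100.

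For lead in roots 0 to 3 members passed without single arrays, and 0 to 2 for the difference between organs. Over all probe sets 36, 22 and 58 passed without the filter for lead in roots, in leaves and for their difference; 171 and 121 passed in roots and for the difference without the 25 ppm root array, and 63 and 28 without the 50 ppm root array. Members higher in roots at both doses numbered 2 with an offset, 2 at a mean signal of at least 100, 8 by a 1.5-fold and 0 by a 3-fold rule, and 6 to 12 without single arrays, where 1 dose remained. Those lower were 4 (330) and 0 (25) by the same rules and 2 (287) to 7 (296) without single arrays. In leaves the members higher were 2 with the floor at the 10th percentile and 2 by the 1.5-fold rule, and 2 to 3 without single arrays; those lower were 0 with the floor at the 50th percentile, 1 with an offset, 0 at a mean signal of at least 100 and 1 by the 3-fold rule. Between doses in roots, 6 (182) were higher at 50 ppm at a mean signal of at least 100. With quantile normalization 2 (313) were lower. In leaves 0 were higher and 0 lower with the floor at the 50th percentile, 1 and 1 with an offset, and 10 lower with the floor at the 10th. At a mean signal of at least 100, 2 were lowest at 25 ppm and 4 highest at 50 ppm in roots. Over all probe sets, counts higher and lower at both doses ran 51 to 591 (156 as reported) and 25 to 330 (98) in roots. In leaves they ran 7 to 251 (53) and 16 to 203 (56). Between doses the fewest were 182 higher (563) and 80 lower (201, at most 313) in roots, and 83 higher (216) and 83 lower (211, at most 331) in leaves. The fewest lowest at 25 ppm were 48 (121) and highest at 50 ppm 111 (341). These fewest counts came at a mean signal of at least 100, where 2209 probe sets were tested in place of 5395. Organ calls over all there numbered 773 in roots and 583 in leaves. Without the control root array they fell to 1111 in roots. The causes were not tested. Comparisons of 50 with 25 ppm could not be had without either array. Leaving out an array also takes its partner at that dose out of the organ fit. Without the dose term 31 members were called higher in roots and 1 in leaves. No replicate block could be fitted for lead, since each group holds 1 array. Leaf signals near the floor limit the lead comparison in leaves for most members, PRXR1 and AT1G71695 being among the exceptions.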
